A study of Homo sapiens with 12 samples.

Results

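The heat shock genes described here are 10 genes, taken by name from the 25733 genes of an expression table: HSPA1A, HSPA1B, HSPA8, DNAJB1, HSPH1, HSPB1, HSP90AA1, HSPE1, HSPD1 and BAG3. Each name matched 1 row, and all 10 were among the 12341 genes that were tested, those whose FPKM averaged 1 or more over the libraries. FPKM is the number of reads on a gene scaled to its length and to a total for its library. The genes were measured by RNA sequencing in HCT116, an established human colorectal cancer cell line, in 4 groups of 3 libraries. Control cells were left untreated. A second group was kept in vehicle for 23 h and then exposed to TGF-β, a growth factor, at 200 pM for 1 h. Another received NH4Cl, a source of ammonia, at 10 mM for 24 h, and the last had 10 mM NH4Cl for 23 h before 200 pM TGF-β for 1 h. Doses and times are those of the study's general treatment methods, since the labels name only the agents and the sequencing methods give no time. Reads assigned to genes numbered 14807630 in the smallest library and 18191998 in the largest (median 15484798).

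Heat shock proteins are chaperones, which bind unfolded proteins and help them fold, be held in solution or be degraded. When unfolded proteins accumulate, for example on heating, the transcription factor HSF1 forms trimers, binds heat shock elements in promoters and raises the mRNA of HSPA1A, HSPA1B, DNAJB1, HSPH1, HSPB1 and BAG3 sharply, whereas HSPA8 and HSP90AA1 are also abundant in unstressed cells. HSPD1 and HSPE1 encode the chaperonin of the mitochondrial matrix, so the name cytosolic holds for the other members only.

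Heat shock elements are inverted repeats of the unit GAA, and bases before the members' starts are shown because such repeats are what HSF1 binds. All 10 members were found in the RefSeq promoter table (GRCh38.p14), with 14 starts. In the 250 bases before each start, GAANNTTC or TTCNNGAA was searched for, each of which reads the same on both strands, and also the longer GAANNTTCNNGAA or TTCNNGAANNTTC, which are each other's reverse complement and contain the shorter letters. GAANNTTC was present for 7 of the 10 members, against 7.05% of the 27303 genes in the table, and TTCNNGAA for 3 of 10, against 8.12%. The longer letters were present for 3 members, HSPA8, HSP90AA1 and HSPD1, against 0.557% of genes. For HSPH1, HSPE1 and BAG3 none of these letters were in this window. The stretches below run 5′ to 3′ on the gene's strand, with the matching letters in capitals, taken before the second listed start for DNAJB1, HSP90AA1 and HSPD1. They are 60 bases long, or 30 bases where the longer stretch touched an annotated exon. The stretches of HSPA8, HSP90AA1 and HSPD1 lie wholly in GENCODE exons of the same gene, and that of HSPD1 also in an exon of HSPE1, so they are upstream only of the RefSeq start used.
HSPA1A, chr6:31815426-31815455, plus strand: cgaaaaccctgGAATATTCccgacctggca
HSPA1B, chr6:31827607-31827666, plus strand: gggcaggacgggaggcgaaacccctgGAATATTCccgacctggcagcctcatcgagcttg
HSPA8, chr11:123062170-123062199, minus strand: cgggccccTTCTGGAAGGTTCtaagatagg
DNAJB1, chr19:14518426-14518485, minus strand: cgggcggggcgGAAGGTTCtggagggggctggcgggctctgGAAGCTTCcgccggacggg
HSPB1, chr7:76302465-76302524, plus strand: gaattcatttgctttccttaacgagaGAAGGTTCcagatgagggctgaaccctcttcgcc
HSP90AA1, chr14:102087105-102087134, minus strand: tcTTCCGGAAGGTTCgggaggcTTCTGGAA
HSPD1, chr2:197500061-197500090, minus strand: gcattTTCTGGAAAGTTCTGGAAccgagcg
A match is a description of the letters and says nothing of binding in these cells.

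Libraries of replicate 3 stood apart from the rest in every group. The first principal component of all tested genes held 52.5% of the variance and separated them from replicates 1 and 2, and mitochondrial genes took 4.502% to 5.12% of their reads against 2.46% to 3.18% in the others. Libraries with the same number deviated together from their group means, though replicates 1 and 2 of different groups were about as alike as those of the same number, so limma models were fitted both without the replicate number and with it as a block, a term that takes the shared deviation of same-numbered libraries out of the spread. The blocked result is given wherever it changed a call. Changes are differences in the mean of log2(FPKM + 1), on which 1 unit is close to a doubling for abundant genes, and a gene was called when its p, adjusted by Benjamini-Hochberg over all tested genes, was under 0.05. Nothing in the labels says that the replicates were separate cultures, so p-values measure the spread between these libraries, which may be technical. The line was checked against epithelial markers. All 8 (EPCAM, CDH1, KRT8, KRT18, KRT19, VIL1, CLDN7 and ELF3) averaged 1 FPKM or more, with a summed FPKM of 2353 to 3515.5 per library. For 10 markers of leukocytes, endothelium, fibroblasts and hepatocytes, 8 were in the table and their summed FPKM was 5.12 to 10.5. Of these, 3 averaged 1 FPKM or more, VWF at 3.01, COL1A1 at 1.68 and LYZ at 1.12. The endothelial marker PECAM1 reached 0.0911 at most.

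In control cells the levels per length spanned a wide range. HSPA8 was highest, at 374 ± 23.6 FPKM (SD, n = 3), followed by HSP90AA1 at 346 ± 14.0, HSPB1 at 245 ± 6.91, HSPD1 at 232 ± 5.69, DNAJB1 at 82.7 ± 10.3, HSPE1 at 31.2 ± 1.88, HSPH1 at 22.4 ± 0.325, BAG3 at 15.0 ± 2.94, HSPA1B at 10.99 ± 2.62 and HSPA1A at 10.7 ± 2.62. Neighbours in this order whose control libraries overlapped were HSPA8 and HSP90AA1, HSPB1 and HSPD1, BAG3 and HSPA1B, and HSPA1B and HSPA1A. The constitutive HSPA8 had a mean of 33.8 times the FPKM of HSPA1A over the 12 libraries, with a range of 19.2 to 53.1. Most HSPA1A sequence recurs in HSPA1B (67.3% of 100-base stretches), against 0% shared with other genes for HSPA8. The levels of HSPA1A and HSPA1B, their low rank and this ratio therefore depend on how reads matching both copies were counted, which was not tested. Over the 12 libraries the reads behind the values ran from 328 to 650 for HSPA1A and from 22027 to 34014 for HSPA8, so counting error weighs most on the stress-inducible genes of low level.

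**Figure D1:**
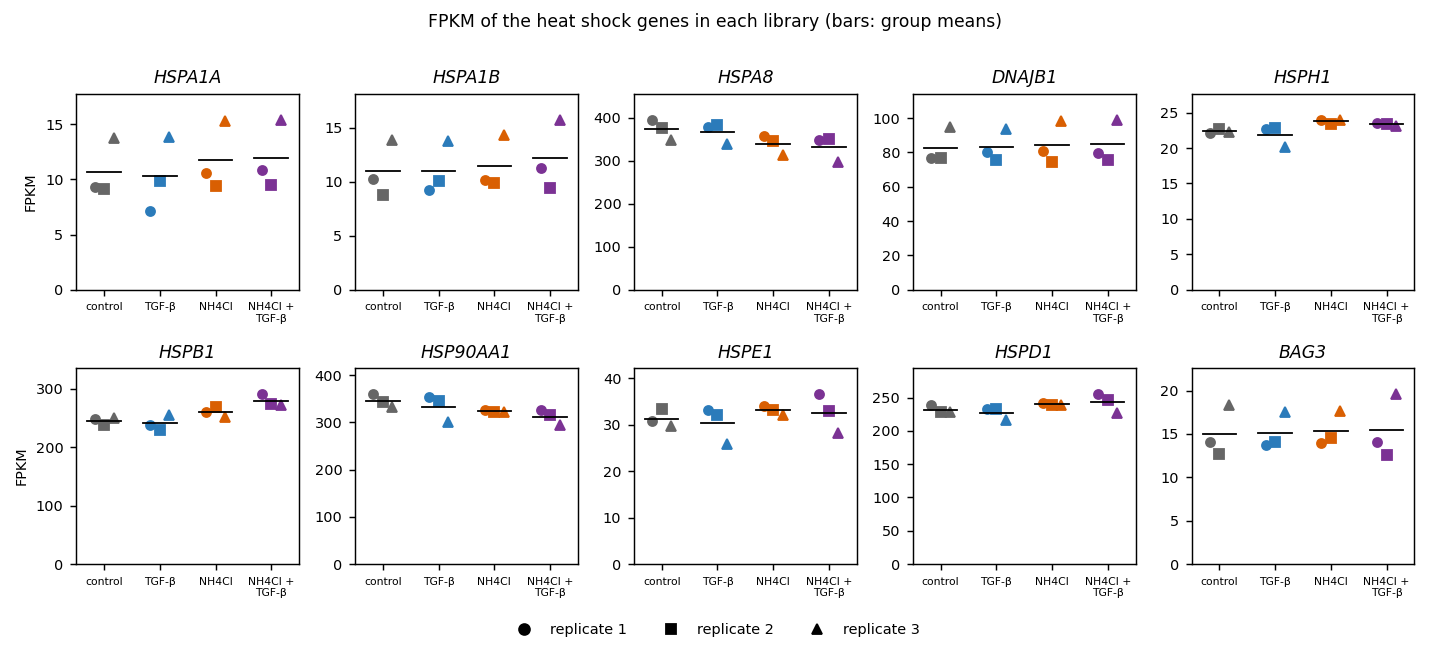
FPKM of the 10 heat shock genes on linear axes that start at 0, with 1 panel per gene, 1 point per library shaped by replicate number, and a bar at each group mean (n = 3). Points of HSPA1A, HSPA1B, DNAJB1 and BAG3 separate by replicate 3 rather than by treatment.

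NH4Cl was compared with control, and NH4Cl plus TGF-β with TGF-β alone. These comparisons share no library, so each gives its own measurement of the NH4Cl effect. In neither did a heat shock gene pass an adjusted p of 0.05 in the limma model without the block: 0 of 10 were called with NH4Cl against control, where 0.381% of all tested genes were, and 0 of 10 in TGF-β-treated cells, where 1.03% were. At an unadjusted p under 0.05 the limma counts without the block were 0 and 1 of 10, beside 10.8% and 13.3% of all tested genes, and with it 2 and 3 of 10, beside 29.05% and 33.4%. The median log2 change of the members was 0.05 and 0.09, and that of all tested genes 0.00 in both. The median size of change, whichever its sign, was 0.08 and 0.10 for the members and 0.09 and 0.10 for all tested genes. With the replicate block, limma called 0 members higher and 1 lower with NH4Cl against control, beside 7.42% of all genes called higher and 6.14% lower. In TGF-β-treated cells it called 1 higher, beside 10.3%, and 1 lower, beside 8.48%.

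HSPA1A and HSPA1B, the stress-inducible HSP70 genes (ENSG00000204389, chromosome 6, 31815464 to 31817946, and ENSG00000204388, chromosome 6, 31827735 to 31830255, both on the plus strand of GRCh38), are near-identical copies. Of the 100-base stretches in HSPA1A transcripts, 67.3% also occur in HSPA1B, so their separate values and their levels beside other genes are uncertain. HSPA1B also shares 920 of its 2521 exon bases with AL671762.1 on the same strand. HSPA1A was at 9.28, 9.10 and 13.7 FPKM in control replicates 1 to 3 and at 10.6, 9.39 and 15.2 with NH4Cl. It was at 7.11, 9.90 and 13.9 with TGF-β, and at 10.9, 9.46 and 15.4 with both. The groups overlapped, and the highest library of each group was replicate 3. The log2 change of HSPA1A with NH4Cl was 0.12 against control, with a 95% interval of -0.45 to 0.69 without the block and -0.10 to 0.34 with it. In TGF-β-treated cells it was 0.21, with an interval of -0.36 to 0.78 without the block and -0.01 to 0.43 with it. The blocked upper bounds correspond to 1.26 and 1.35 times the level without NH4Cl on the FPKM + 1 scale. HSPA1B ranged from 8.80 to 15.7 FPKM over the 12 libraries and differed by 0.06 and 0.12, with blocked intervals of -0.08 to 0.20 and -0.02 to 0.26. When the pair was summed into 1 feature, a step chosen after seeing the data, the changes were 0.09 and 0.17 and limma's adjusted p with the block was 0.460 and 0.142.

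HSPA8 (ENSG00000109971, chromosome 11, 123057489 to 123063230, minus strand) encodes the constitutive HSP70 of the cytosol. Its FPKM was 396, 376 and 349 in control replicates 1 to 3 and 357, 346 and 314 with NH4Cl. With TGF-β it was 377, 384 and 339, and with both 349, 350 and 297. Each NH4Cl library was below the library of the same number without NH4Cl, in 6 of 6 pairs, while the groups as wholes overlapped. The log2 change was -0.14 (standard error 0.0884 without the block and 0.0327 with it) against control and -0.15 in TGF-β-treated cells. With 1 library left out and no block it ran from -0.19 to -0.0846 and from -0.20 to -0.0666. Without the block limma's adjusted p was 0.652 and 0.547, and with it 0.0223 and 0.0142. Over the 18 alternatives tried the adjusted p in limma ran from 0.0178 to 0.999 and from 0.0112 to 0.892. With replicates 1 and 2 only, the blocked changes were -0.13 and -0.12, and limma's adjusted p was 0.0925 and 0.0945. Both calls were also lost in limma without replicate 2 (blocked adjusted p = 0.161 against control and 0.113 in TGF-β-treated cells) and without replicate 1 (0.145 and 0.0810). The changes were then -0.15 and -0.13 against control and -0.15 and -0.16 in TGF-β-treated cells. Both calls were thus lost whichever replicate was left out. Each such fit has fewer libraries. Against control these fits called 1147 (replicates 1 and 2), 218 (1 and 3) and 273 (2 and 3) of all genes, beside 1674 with all libraries and the block. The part of any single replicate in the loss was not tested. Among the exons of HSPA8 lie the small nucleolar RNA genes SNORD14C and SNORD14D.

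DNAJB1, the J protein that hands substrates to HSP70 and among the most heat-inducible genes (ENSG00000132002, chromosome 19, 14514770 to 14529770, minus strand), did not pass in any comparison. Its FPKM was 76.8, 76.6 and 94.6 in control cells, 80.6, 74.3 and 98.5 with NH4Cl, 80.03, 75.3 and 93.4 with TGF-β, and 79.6, 75.3 and 99.1 with both. Replicates 1 and 2 of all groups lay between 74.3 and 80.6, and replicate 3 between 93.4 and 99.1. The log2 change with NH4Cl was 0.03 in both comparisons, with blocked intervals of -0.05 to 0.10 in each. BAG3, which couples HSP70 to small heat shock proteins and to autophagy (ENSG00000151929, chromosome 10, 119651370 to 119677819, plus strand), ranged from 12.6 to 19.6 FPKM. It differed by 0.04 and 0.02, with blocked intervals of -0.10 to 0.17 and -0.12 to 0.15. HSPH1, an HSP110 exchange factor of HSP70 (ENSG00000120694, chromosome 13, 31134974 to 31162388, minus strand), ranged from 20.2 to 24.02 FPKM. It was higher with NH4Cl in 6 of 6 pairs, by 0.08 and 0.09 on average (0.0358 to 0.12 in TGF-β-treated cells with 1 library left out), and did not pass, with blocked intervals of -0.0093 to 0.18 and -0.0035 to 0.18.

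HSPB1 (ENSG00000106211, chromosome 7, 76302544 to 76304295, plus strand) encodes a small heat shock protein, HSP27, that holds unfolded proteins without using ATP. It was at 249, 237 and 249 FPKM in control replicates 1 to 3 and at 260, 268 and 251 with NH4Cl. Its FPKM was 238, 229 and 255 with TGF-β and 291, 274 and 273 with both. All libraries with both treatments were above all libraries with TGF-β alone, and in 6 of 6 pairs the NH4Cl library was the higher, or in 5 of 6 when libraries were centred on their medians. How many of all tested genes separate these groups in the same way was not counted. The log2 change was 0.21 in TGF-β-treated cells, with limma's adjusted p at 0.142 without the block and 0.0120 with it, and a range of 0.00976 to 0.441 over 18 alternatives. With replicates 1 and 2 only it was 0.27, with a blocked limma adjusted p of 0.0135, and the call was lost in limma without replicate 2 (0.19, blocked adjusted p = 0.108) or replicate 1 (0.18, blocked adjusted p = 0.143). Against control the change with NH4Cl was 0.08, with limma's adjusted p at 0.262 with the block. The difference between these changes was 0.13, and limma's interaction term gave an adjusted p of 0.992 with the block (range over 23 alternatives 0.822 to 1.00), so HSPB1 was not shown to respond differently in TGF-β-treated cells.

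HSP90AA1 (ENSG00000080824, chromosome 14, 102080738 to 102139699, minus strand), the inducible cytosolic HSP90, had FPKM values of 361, 343 and 333 in control replicates 1 to 3 and 326, 321 and 323 with NH4Cl. It had 354, 345 and 302 with TGF-β and 327, 316 and 294 with both. The NH4Cl library was the lower in 6 of 6 pairs, and the 3 NH4Cl libraries lay below the 3 control libraries, while those with TGF-β overlapped. The share of all tested genes with such a separation was not counted. The log2 change of -0.09 in both comparisons did not pass in limma, and in TGF-β-treated cells it ran from -0.16 to -0.0476 with 1 library left out. Its blocked interval was -0.19 to -0.0014 against control and -0.19 to 0.0004 in TGF-β-treated cells, and the blocked adjusted p of limma 0.167 and 0.151 (ranges over 18 alternatives 0.0849 to 1.00 and 0.0724 to 0.961).

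HSPD1 and HSPE1 encode the HSP60 and HSP10 of the mitochondrial chaperonin. HSPD1 (ENSG00000144381, chromosome 2, 197486581 to 197516737, minus strand) and HSPE1 (ENSG00000115541, chromosome 2, 197499994 to 197503457, plus strand) share 281 exon bases on opposite strands, so reads there cannot be assigned without strand. HSPE1 also shares 192 of its 1977 exon bases with the readthrough gene HSPE1-MOB4. HSPD1 ranged from 217 to 256 FPKM over the 12 libraries, and HSPE1 from 25.8 to 36.6. HSPD1 was the higher with NH4Cl in 6 of 6 pairs and HSPE1 in 5 of 6, by a log2 change of 0.05 and 0.08 against control and 0.09 and 0.10 in TGF-β-treated cells, and neither passed in limma with or without the block. Their blocked intervals in TGF-β-treated cells were 0.02 to 0.17 for HSPD1, which did not reach the threshold after adjustment (limma 0.0925, range over 18 alternatives 0.0914 to 0.912), and -0.04 to 0.25 for HSPE1.

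**Figure D2:**
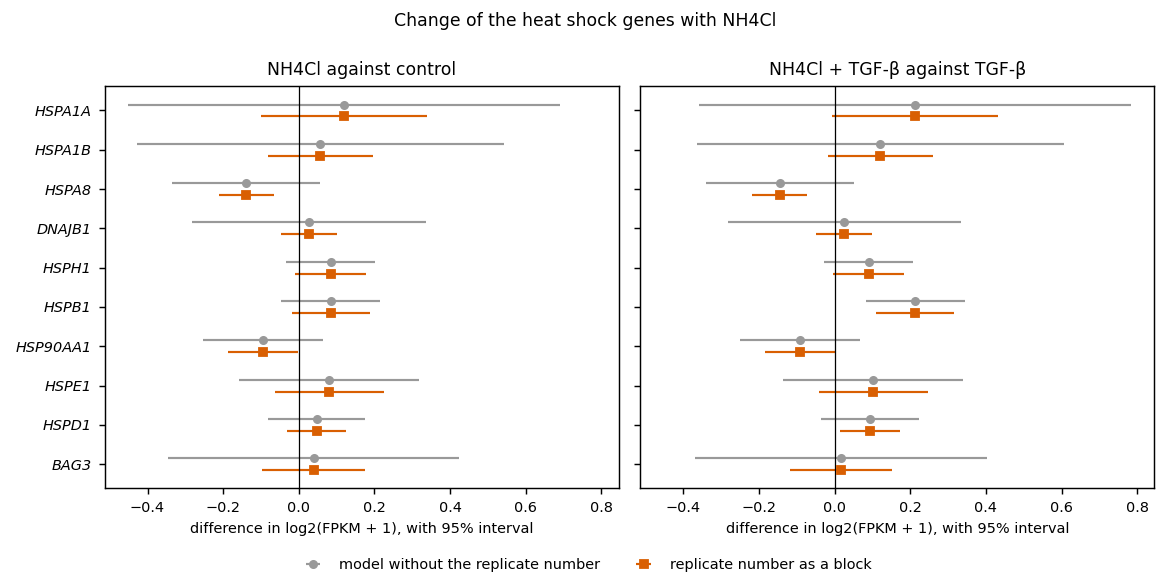
Difference in log2(FPKM + 1) of each heat shock gene with NH4Cl, against control on the left and in TGF-β-treated cells on the right, as limma estimates with 95% intervals without the replicate number and with it as a block. Estimates lie between -0.15 and 0.21, and in log2 units the block narrows the intervals most for HSPA1A, HSPA1B, DNAJB1 and BAG3.

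Across the NH4Cl pairs, 3 of 10 members (HSPH1, HSPB1 and HSPD1) were higher with NH4Cl in 6 of 6 pairs, beside 15.7% of all tested genes, and 2 of 10 (HSPA8 and HSP90AA1) were lower in 6 of 6, beside 15.5%. Members did not move as 1 group. With each replicate number centred on its own mean, the Pearson correlation of a member with the mean of the other 9 over 12 libraries ran from -0.70 for HSPA8 to 0.76 for HSPH1, a description in which libraries and depth are shared. HSPD1 and HSPE1 had a correlation of 0.77, HSPA1A and HSPA1B, which share sequence, 0.76, and HSPA8 and HSPB1 -0.77. Larger in size were those of HSPE1 and HSPH1 (0.81), HSP90AA1 and HSPA8 (0.79), and HSP90AA1 and HSPB1 (-0.81). Genes most like the mean of the members were AC064799.1 (0.96), ZBTB6 (0.95), TAF1D (0.94), DNAJB14 (0.94) and TMEM161B-AS1 (0.94).

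TGF-β for 1 h was compared with control, and NH4Cl plus TGF-β with NH4Cl alone, again without shared libraries. In the limma models without the block 0 of 10 members were called in either, beside 0% of all tested genes, and at an unadjusted p under 0.05 there were 0 members in both, beside 0.835% and 1.34% of genes. With the block 0 of 10 were called in either, beside 0.0081% of genes in each, and at an unadjusted p under 0.05 limma counted 0 and 1 of 10, beside 3.42% and 7.12% of genes. The largest change was -0.07 for HSPA1A with TGF-β against control, and 0.10 for HSPB1 in NH4Cl-treated cells. With 1 library left out and no block that of HSPA1A ran from -0.29 to 0.14, so its sign was not fixed. In the interaction of NH4Cl and TGF-β, limma called 0 of 10 members with or without the block, beside 0% of genes, and at an unadjusted p under 0.05 there were 0 members in both models, beside 0.932% of genes without the block and 4.35% with it.

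NH4Cl plus TGF-β against control shares its libraries with the comparisons above and is given beside them. Without the block limma called 0 of 10 members, beside 0.948% of genes, with 1 at an unadjusted p under 0.05, beside 13.1%. With the block it called 1 higher, beside 10.7%, and 2 lower, beside 7.77%. HSPB1 was higher by 0.19 (blocked limma adjusted p = 0.0203, range over 18 alternatives 0.0175 to 0.541). HSPA8 was lower, with a change of -0.17 (blocked limma adjusted p = 0.00639, range 0.00464 to 0.868), and so was HSP90AA1, at -0.15 (blocked limma adjusted p = 0.0363, range 0.0363 to 0.860). With replicates 1 and 2 only, limma's blocked adjusted p was 0.0265 for HSPB1, 0.0669 for HSPA8 and 0.05999 for HSP90AA1, and none of these calls was kept without replicate 1 or without replicate 2. The changes stayed about as large: without replicate 2 and without replicate 1 they were 0.18 and 0.17 for HSPB1, -0.21 and -0.17 for HSPA8, and -0.16 and -0.15 for HSP90AA1.

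For some members the libraries separated by replicate number. HSPA1A, HSPA1B, DNAJB1 and BAG3, 4 of 10 members, were higher in all 4 replicate 3 libraries than in all 8 others, beside 15.8% of all tested genes, and 0 of 10 were lower in all 4, beside 15.4%. Replicate 3 was above the mean of replicates 1 and 2 by 0.58 for HSPA1A, 0.50 for HSPA1B, 0.39 for BAG3 and 0.31 for DNAJB1 on the log2 scale. With libraries scaled to the same sum, the median of all tested genes was lower in replicate 3 by a log2 change of -0.17; the same 4 genes stayed above the others, beside 7.24% of all tested genes, and 5 members (HSPA8, HSPH1, HSP90AA1, HSPE1 and HSPD1) then lay below, beside 33.6%. The share of mitochondrial reads moved with these differences, and its part in them was not tested.

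**Figure D3:**
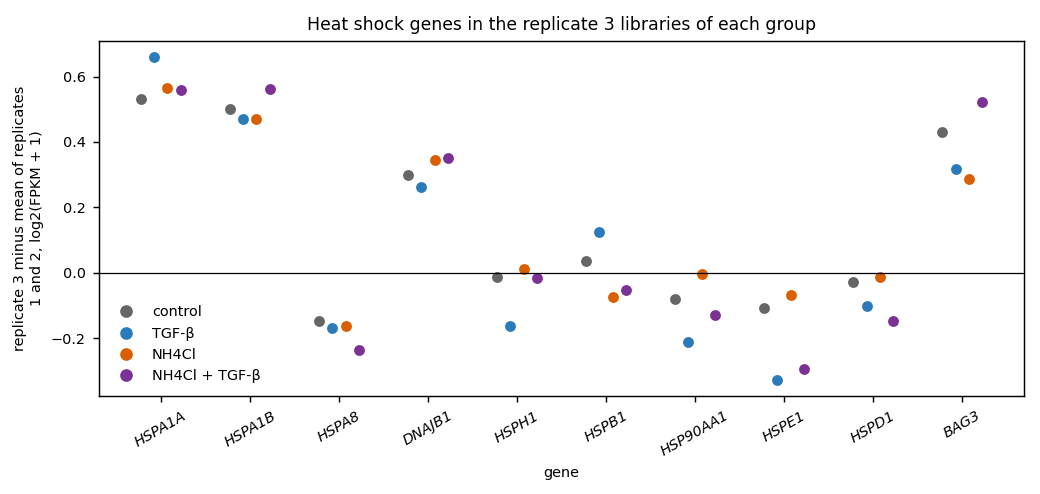
Difference between replicate 3 and the mean of replicates 1 and 2 in log2(FPKM + 1), with 1 point per group for each heat shock gene. All 4 groups lie above 0 for HSPA1A, HSPA1B, DNAJB1 and BAG3, and below 0 for HSPA8, HSP90AA1, HSPE1 and HSPD1.

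Chaperones and their partners outside the endoplasmic reticulum were described by 9 lists of 89 genes, for which 73 gene identifiers passed the filter. A list of 9 chaperones of the endoplasmic reticulum is given apart. With the replicate block limma called 6 higher and 5 lower with NH4Cl against control, and 10 higher and 5 lower in TGF-β-treated cells. Beside these stand 7.42% higher and 6.14% lower, and 10.3% and 8.48%, of all tested genes, against 8.22% and 6.85%, and 13.7% and 6.85%, of these lists. With the endoplasmic reticulum list added, 6 of 82 were higher and 11 lower (13.4%) against control, and 10 higher and 8 lower (9.76%) in TGF-β-treated cells. Without the block limma called 0 of the 73 in either comparison. Their median log2 change was 0.01 and 0.04, and that of all tested genes 0.00. Each gene named as higher or lower here passed with the block against control and not without it. With replicates 1 and 2 only and the block, HSPA4L (0.23), DNAJB2 (-0.16), CDC37 (-0.15), CLPX (0.17), CLU (-0.24) and SDF2L1 (-0.27) no longer passed, at changes close to those with all libraries. SQSTM1, CALR and KRT19 passed in each blocked fit of a pair of replicates. HSPA4, BAG1, HSPBP1, PFDN2, TRAP1, HSPA5, PDIA4 and VIL1 passed with replicates 1 and 2 only and with no other pair. Their changes in the other pairs were close to those with all libraries, apart from PFDN2 (0.15 with replicates 1 and 3). VWF did not pass with replicates 2 and 3. HSF1, the regulator of the response, was at 20.9 ± 1.08 FPKM in control cells and 20.4 ± 0.382 with NH4Cl (SD, n = 3), a log2 change of -0.03, and HSF2 differed by 0.20. Neither passed, and of the HSF list 0 of 3 tested genes did. Among other cytosolic HSP70 and HSP110 genes 2 of 6 were higher, HSPA4L by 0.23 and HSPA4 by 0.18, both in 6 of 6 pairs. Of the J proteins 1 of 9 was lower, DNAJB2, with a change of -0.16. In TGF-β-treated cells its difference of -0.07 did not pass, and with the block 1 of 9 was higher and 0 lower. Of the HSP70 partners 2 of 8 were lower, the exchange factors BAG1 with -0.25 and HSPBP1 with -0.23, both in 6 of 6 pairs. Of HSP90 and its co-chaperones 1 of 12 was lower, the kinase adaptor CDC37 with -0.14, while HSP90AB1, the constitutive HSP90, was at 696 ± 11.02 FPKM in control cells and 653 ± 20.8 with NH4Cl and did not pass.

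In the cytosolic chaperonin and prefoldin list 1 of 14 was higher, PFDN2 by 0.20. Of the mitochondrial chaperones and proteases 2 of 10 were higher, TRAP1, the mitochondrial HSP90, by 0.16, and CLPX, the unfoldase of the CLPXP protease, by 0.15. HSPA9, the mitochondrial HSP70, differed by 0.02 and did not pass. The only other small heat shock protein gene past the filter did not pass. Of 10 other genes bound by HSF1 on heat shock, SQSTM1, an autophagy receptor, was higher by 0.56 (standard error 0.0571 with the block), from 28.0 ± 6.11 FPKM in control cells to 41.5 ± 5.54 with NH4Cl (SD, n = 3), and by 0.60 in TGF-β-treated cells, in 6 of 6 pairs. The secreted chaperone CLU was lower, with a change of -0.22. Chaperones of the endoplasmic reticulum stood on the lower side: 6 of 9 were lower with NH4Cl against control and 3 of 9 in TGF-β-treated cells with the block, beside 6.14% and 8.48% of all tested genes, and 0 of 9 without it, with list medians of -0.18 and -0.13. Against control and in TGF-β-treated cells, CALR changed by -0.34 and -0.36, and PDIA4 by -0.18 and -0.16. In TGF-β-treated cells PDIA4 lost its blocked call with replicates 1 and 2, 1 and 3, and 2 and 3. Limma's adjusted p was then 0.0743, 0.0941 and 0.0899, at changes of -0.12, -0.19 and -0.16. SDF2L1 changed by -0.30 against control and HSPA5, the HSP70 of that compartment, by -0.19, while in TGF-β-treated cells their differences of -0.15 and -0.08 did not pass. With 1 library left out and no block, that of HSPA5 against control ran from -0.35 to 0.0138. Among the markers of cell type KRT19 was lower, at -0.39, VIL1 higher, at 0.18, and VWF higher, at 0.46, at levels of 2.37 ± 1.33 FPKM in control cells and 3.63 ± 1.78 with NH4Cl, a change that ran from 0.17 to 0.77 when 1 library was left out.

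**Figure D4:**
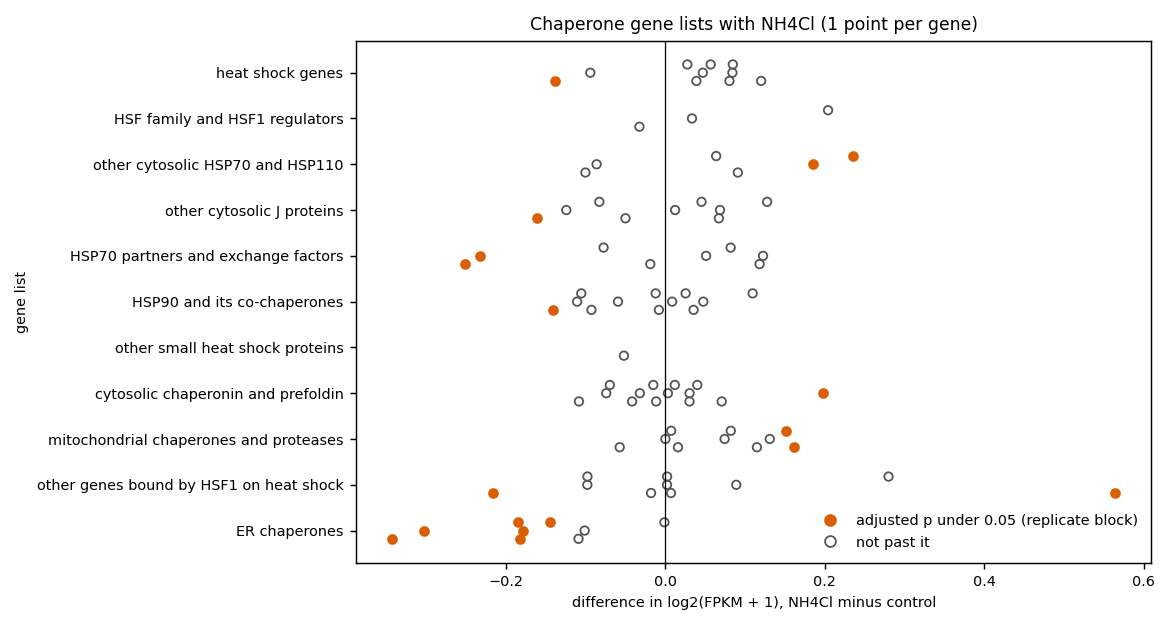
Difference in log2(FPKM + 1) between NH4Cl and control for the tested genes of the heat shock genes and 10 further chaperone lists, with 1 point per gene and those past an adjusted p of 0.05 in limma with the replicate block filled. SQSTM1 is the rightmost point, at 0.56, and CALR the leftmost, at -0.34.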

How the data were processed

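The authors deposited FPKM for 25733 genes in 12 libraries of HCT116 cells. The submitters' processing notes name Trimmomatic 0.36, STAR 2.5.2b, featureCounts of Subread 1.5.2, DESeq2 and GRCh38, whereas the methods name HTSeq, and the use of strand is not stated. RNA was isolated with an RNeasy kit per the labels and a PureLink kit per the methods. Coordinates and exon lengths were taken from GENCODE 29, where all 25733 identifiers were found. With these lengths, 100% of FPKM values above 0 were whole reads within 0.1, which gave the depth. The library totals behind the deposited values were 1.017 to 1.032 times the reads on genes in replicates 1 and 2. In replicate 3 they were 0.964 to 0.969 times those reads, so FPKM there is raised relative to the other libraries.

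Values were analysed as log2(FPKM + 1), so changes of low genes are understated. A model with 4 group means was fitted to all 12 libraries with limma 3.58.1 in R 4.3.3, with an intensity trend, two-sided, and Benjamini-Hochberg adjustment over the 12341 genes averaging 1 FPKM or more, at a threshold of 0.05. The code was tested on simulated data. Deviations from group means were compared between same-numbered libraries in 6 pairs per number. Their correlations lay between 0.349 and 0.431 (replicate 1), 0.446 and 0.533 (replicate 2), and 0.702 and 0.774 (replicate 3), all positive, so the numbers were taken to pair libraries, a pairing that comes from the data. Replicate 1 correlated with replicate 2 of other groups at 0.341 to 0.486, and replicate 3 with either at -0.655 to -0.464. The data therefore set replicate 3 apart but do not tell replicate 1 from replicate 2. Python 3.11.15 with pandas 2.3.3, numpy 2.4.6 and matplotlib 3.10.9 was used for other steps.

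Genes were kept apart by identifier, since 32 names occur more than once. The members and lists were chosen with earlier results of these data known. Besides the 10 members, at most 4 genes per list were named, those with the largest change with NH4Cl against control past the threshold with the block, as well as HSF1, HSF2, HSP90AB1, HSPA5 and HSPA9, and the 5 genes most like the members' mean. Alternatives were a pseudocount of 0.1, no filter, a mean FPKM of at least 5, equal library sums (TPM), median centring, only the groups compared, the replicate block, no trend, replicates 1 and 2 only with the block, and each library left out. Added after the data were seen were a block of replicate 3 against the rest, and blocked fits of replicates 1 and 3 and of replicates 2 and 3.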

Additional observations from a re-analysis of the deposited data

How the results depend on the processing

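Heat shock genes called by limma stayed at 0 of 10 in all 6 comparisons under every alternative without the block. With the replicate block there were 1 with NH4Cl against control, 2 in TGF-β-treated cells and 3 with both treatments against control, and with replicates 1 and 2 only and the block 0, 1 and 1. A block of replicate 3 against the rest, added after the data were seen, gave 1, 2 and 3, and the blocked fits of replicates 1 and 3 or of 2 and 3 gave 0 in each. The block changed no other call of a heat shock gene. In the same order, the replicate 3 block called 1793, 2401 and 2375 of all genes, replicates 1 and 3 with the block 218, 580 and 625, and replicates 2 and 3 with the block 273, 546 and 627.

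Counts over all genes moved more. With NH4Cl against control 47 genes were called (33 higher, 14 lower), against 1674 with the replicate block, 1147 with replicates 1 and 2 and the block, 23 without the filter, 0 with only the groups compared and 0 to 29 with 1 library left out. Median centring gave 33 higher and 23 lower. In TGF-β-treated cells 127 became 2322 with the block, 1653 with replicates 1 and 2, 51 without the filter, 58 with equal library sums, 0 with only the groups compared and 3 to 133 with 1 library left out. For both treatments against control 117 became 2274, 1605, 39, 54 and 0 in the same order, and 2 to 57 with 1 library left out. With TGF-β against control 0 became 1 with the block, 1 with replicates 1 and 2, 1 with replicates 1 and 3, and 0 to 1 with 1 library left out. With both against NH4Cl 0 became 1 with the block, and the interaction gave 1 with replicates 1 and 2 and 0 to 1 with 1 library left out. Fewer libraries in a fit and more genes tested are part of these settings by construction, and the cause was otherwise not tested.

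Some log2 changes that had not passed without the block turned in sign. With replicates 1 and 2 only, those in TGF-β-treated cells were -0.0041 for DNAJB1, -0.0522 for BAG3, 0.0047 for HSF1 and 0.0188 for HSPA9. With replicates 1 and 3 only and the block, BAG3 changed to -0.0310 with NH4Cl against control. With 1 library left out and no block, changes with NH4Cl against control ran from -0.0679 to 0.30 for HSPA1A, -0.10 to 0.22 for HSPA1B, -0.0871 to 0.13 for DNAJB1, -0.0649 to 0.18 for BAG3, -0.0642 to 0.0053 for HSF1, -0.0062 to 0.0440 for HSPA9 and -0.35 to 0.0138 for HSPA5. In TGF-β-treated cells they ran from -0.0047 to 0.43 for HSPA1A, -0.0669 to 0.28 for HSPA1B, -0.0917 to 0.11 for DNAJB1, -0.16 to 0.14 for BAG3, -0.0072 to 0.20 for HSPE1, -0.0932 to 0.0191 for HSF1, -0.0656 to 0.0736 for HSPA9, -0.25 to 0.12 for HSPA5 and -0.19 to 0.0495 for DNAJB2. Some changes kept their sign and still moved widely with NH4Cl against control, by a factor of over 1.5, up or down, from the change with all libraries (not from end to end of the range): HSPA8 (-0.19 to -0.0846), HSPE1 (0.0443 to 0.13), HSF2 (0.0962 to 0.27), DNAJB2 (-0.25 to -0.0793), BAG1 (-0.38 to -0.15), HSPBP1 (-0.35 to -0.11), PFDN2 (0.11 to 0.33), CLU (-0.31 to -0.14), PDIA4 (-0.27 to -0.0617), KRT19 (-0.54 to -0.24) and VWF (0.17 to 0.77). In TGF-β-treated cells those printed in the text that did so were HSPA8 (-0.20 to -0.0666), HSPH1 (0.0358 to 0.12), HSP90AA1 (-0.16 to -0.0476), HSPD1 (0.0556 to 0.14), PDIA4 (-0.24 to -0.0366) and SDF2L1 (-0.22 to -0.0937). BAG1 there ran from -0.29 to -0.0043 and lost its blocked call with replicates 1 and 2 only (-0.10). With both treatments against control HSPA8 ran from -0.22 to -0.0937. The cause was not tested. Depth limits HSPA1A and HSPA1B most, with at most 650 and 674 reads per library. Their sum was added as an alternative after the data had been seen.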
